A study of Homo sapiens with 24 samples.

Results

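The SNAR genes are a human family of short non-coding transcripts, and they were taken here as every non-lncRNA interval of the small RNA table whose first listed name begins with SNAR. This gave 38 of the table's 175946 features, at 28 separate loci. The 28 loci comprise 14 of subfamily A, 2 of subfamily B, 5 of subfamily C and 7 with a letter of their own (D, E, F, G1, G2, H and I). At 10 loci the table holds a long and a short interval around the same gene. Only 5 to 13 counts over 12 libraries fell in the long interval outside the short one, so each locus is described by its short interval. The table's own names do not separate the copies: 24 of the 38 intervals carry another name than the RefSeq gene at their position, and only 14 distinct names occur, so RefSeq (GRCh38.p14) symbols are used below.

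SNARs fold into a long hairpin and are transcribed by RNA polymerase III from a promoter inside the gene. The family arose from Alu-type elements in the African great ape lineage and is known for high levels in transformed cell lines, including HEK293 derivatives, and in testis. Lamins A, B1 and B2, encoded by LMNA, LMNB1 and LMNB2, form the meshwork under the nuclear membrane that contacts chromatin.

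The study set RNA polymerase III activity beside chromatin organisation in HEK293 cells, a transformed human embryonic kidney line labelled as wild type. Cells overexpressed eGFP (called GFP, the control), LMNA, LMNB1 or LMNB2, so every group carried an overexpressed protein on the same HEK293 background. Small RNA-seq and ATAC-seq, which counts transposase insertions in open chromatin, were each done on 3 libraries per group, giving 24 libraries. The labels put all small RNA libraries in batch 1 and all ATAC libraries in batch 2, and do not say whether replicates were separate cultures, so p-values measure only the spread between these libraries, which may be technical. The vector and the duration of overexpression are not given in the sources used here.

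Small RNA libraries held 132507051 to 195074742 counts and ATAC libraries 156043245 to 290158229. Levels are CPM, counts per 1000000 of the TMM-scaled library size. The GFP small RNA libraries stood apart from each other: their TMM factors were 0.631, 0.905 and 1.31 for replicates 1, 2 and 3, against 0.878 to 1.16 in the other groups. Their tRNA share of counts ranged from 0.826% to 2.01%, against 1.19% to 1.47% elsewhere, and the rRNA share was 5.18% to 10.8% in GFP and 12.1% to 12.9% in LMNB2. The part of these differences in the SNAR results was not tested. As a check of the labels, all 8 small RNA features at the LMNB2 locus were called higher with LMNB2 and 3 of 5 at LMNB1 with LMNB1, while the 1 feature tested at LMNA did not pass with LMNA (log2 fold change -0.09). In ATAC, 2 of 8, 3 of 6 and 1 of 6 features at the LMNB2, LMNB1 and LMNA loci were called higher.

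Positions place 26 of the 28 loci on chromosome 19, where they form a pair of tandem arrays and a smaller pair of genes. The proximal cluster runs from 47907655 to 47955821 on the plus strand, between SULT2A1 and BSPH1, and holds 5 A loci (A1, A2, A3, A12, A13) and all 5 C loci. Neighbouring copies there lie 5039 to 5386 bp apart, start to start, with a median of 5371 bp. The distal cluster runs from 50092470 to 50140345 on the minus strand, between ZNF473 and IZUMO2, and holds 9 A loci, both B loci and D. Its spacing is 1080 to 5373 bp with a median of 5337 bp, so most copies of both arrays sit in a repeat unit of about the same length.

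SNAR-G2 (chromosome 19, 49031648 to 49031812) and SNAR-G1 (49036995 to 49037172) start 5347 bp apart with CGB2 and CGB1 between them, both genes of the chorionic gonadotropin beta subunit, a pregnancy hormone chain. CGB3 and CGB5 lie on either side of the pair. E (chromosome 19, 46830560 to 46830729) and F (chromosome 19, 50604938 to 50605110) stand alone, between protein-coding neighbours. H lies on chromosome 2 (77954882 to 77955051) and I on chromosome 3 (190877905 to 190878075), which makes them the 2 members outside chromosome 19.

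Near-identical copies share reads, and how the authors assigned a read that maps to several copies is not given in the sources used here. Across the 9 distal A loci, the variance of the small RNA counts divided by their mean was 0.907 to 3.85 in each of the 12 libraries, so these loci could hardly be told from one another. In ATAC the same quotient was 11.4 to 24.9. The copies are therefore not independent measurements, and a count of loci that moved is not a count of separate events.

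Small RNA levels differed between members by orders of magnitude and fell into a few groups of copies. SNAR-A3 (chromosome 19, 47923754 to 47923924) was highest, at a mean level of 407 CPM per kb of interval over 12 libraries. A1 (47918406 to 47918568) and A2 (47934158 to 47934320) followed at 361 and 357 CPM per kb, and the 9 distal A loci lay between 207 and 212. These 12 loci, called the abundant A loci below, were grouped after their levels were seen. They held 95.3% to 99.1% of the family's counts in every library and ranked at percentiles 99.7 to 99.8 of all features by level per kb.

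The other loci of the proximal and distal arrays were expressed at a far lower level, although they lie between or beside abundant copies. A12 (47907655 to 47907817) and A13 (47944899 to 47945061), which are also A genes of the proximal cluster, stood at 13.5 and 12.9 CPM per kb. B1 (50133724 to 50133889) and B2 (50139097 to 50139262), in the distal cluster, stood at 9.30 and 9.66. C3 (47950271 to 47950435) and C4 (47939516 to 47939680) stood at 3.57 and 3.56, against 0.715 to 0.812 for C1, C2 and C5. Within each of these pairs the copies lay closer to each other than to any other locus, and they share reads.

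Among the single-letter loci E reached 2.01 CPM per kb and D 0.701. F, G1, G2, H and I had 0 to 8 counts in any library, did not pass the filter on low counts and were not tested in small RNA. G1 had 3 counts in LMNA replicates 1 and 3, 1 count each in GFP replicate 2 and LMNB2 replicates 1 and 2, and 0 in the other 7 libraries. A count of 0 allows up to 0.0169 to 0.0258 CPM, depending on the library and for counting error only, so G1 and G2 were at or near the limit of detection in every group. The filter left 23 of the 28 loci.

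**Figure D1:**
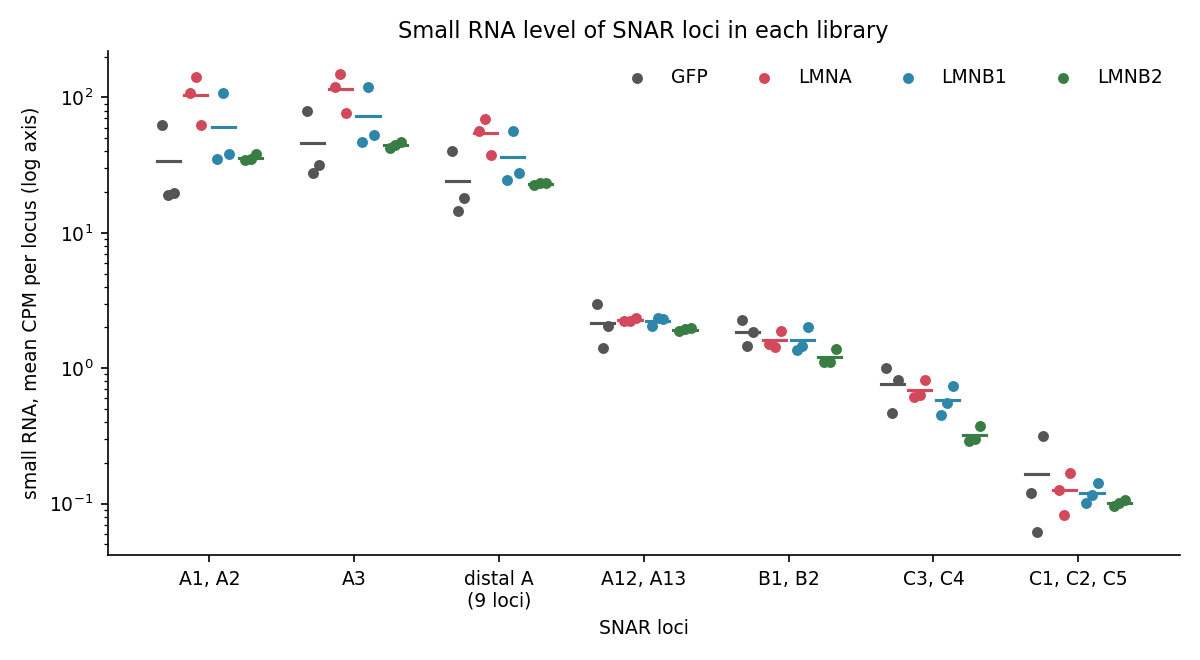
Mean small RNA level per locus (CPM, log axis) in each of the 12 libraries for 7 sets of SNAR loci; points are libraries and bars are group means. The abundant A loci lie above all other sets in every library, and within those sets the LMNA libraries and LMNB1 replicate 2 are among the highest.

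The first comparison asks whether SNAR RNA changes when lamin A is overexpressed. The family's summed level was 581, 203 and 246 CPM in GFP replicates 1, 2 and 3, and 850, 1067 and 553 CPM with LMNA. The LMNA libraries were thus mostly higher, but LMNA replicate 3 lay below GFP replicate 1, so the groups overlapped. The means were 343 ± 207 and 824 ± 258 CPM (SD, n = 3 each). Scaled by total counts alone, the sums were 366, 183 and 321 CPM in GFP and 859, 1018 and 485 CPM with LMNA, and the groups did not overlap. In bulk RNA, a change in the number of cells that make a transcript and a change in its amount per cell cannot be told apart.

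SNAR-A1, the RNA of a proximal abundant copy, was at 62.7, 18.99 and 20.1 CPM in the GFP libraries and at 109, 141 and 62.9 CPM with LMNA. Every LMNA library lay above every GFP library, the closest pair, at 62.7 and 62.9 CPM, almost touching. The difference was 1.62 ± 0.57 (SE) on the log2 scale and did not pass (adjusted p = 0.895). This is the adjusted p of the quasi-likelihood test in edgeR, corrected over 33893 features by the Benjamini-Hochberg procedure, and a locus is called when it is under 0.05. A2 had the same 1.62 ± 0.56 and likewise did not overlap. A3, the copy with the highest level, was at 79.0, 27.9 and 31.6 CPM in GFP and at 119, 150 and 76.2 with LMNA. Here GFP replicate 1 lay above LMNA replicate 3, and the log2 fold change was 1.32 ± 0.44 (adjusted p = 0.882, edgeR).

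The 9 distal A loci had log2 fold changes of 1.15 to 1.19, so all 12 abundant copies had values of the same sign and similar size. None passed, as no feature of the table was called in LMNA against GFP (0%). All 12 had an unadjusted p under 0.05 in edgeR, where 2.83% of all features did so in the higher direction. DESeq2 also called 0 loci, where 0.0709% of features were called, with adjusted p of 0.141 to 0.271 for these 12. The unadjusted p depended on the libraries: 0 of 12 loci had one under 0.05 without GFP replicate 3, 9 without GFP replicate 2 and 10 without LMNA replicate 2, with median log2 fold changes of 1.06, 0.92 and 0.98. Without GFP replicate 1 the median was 1.76.

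The filter on low counts also mattered. With no filter, edgeR called 10 of 28 loci higher with LMNA, namely A3 and the 9 distal A loci, when 0.0737% of 150622 features were called. A3 then had 1.39 ± 0.24 and an adjusted p of 0.000168, while A1 stayed at an adjusted p of 0.9. That fit holds 150622 features, against the 33893 that passed the filter.

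The low copies of the same arrays had values near 0 or below it. SNAR-A13 was at 3.04, 1.26 and 2.03 CPM in GFP and at 2.17, 2.11 and 2.50 CPM with LMNA, all 3 within the GFP range. The log2 difference was 0.10 ± 0.23 and that of A12 0.07 ± 0.20. B1 was at 2.12, 1.43 and 1.93 CPM in GFP and 1.36, 1.44 and 1.91 with LMNA, overlapping throughout (-0.21). The C loci had values of -0.59 to -0.05, D -0.38 and E -0.22. The median over the 11 tested loci outside the abundant A set was -0.22, against 1.17 for the 12 abundant loci, 1.15 for all 23 and -0.05 for all tested features. By TMM scaling 2 loci (A1 and A2) separated the LMNA from the GFP libraries on the higher side, where 4.16% of all features did, and by total counts all 12 abundant loci did, where 2.48% of features did.

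**Figure D2:**
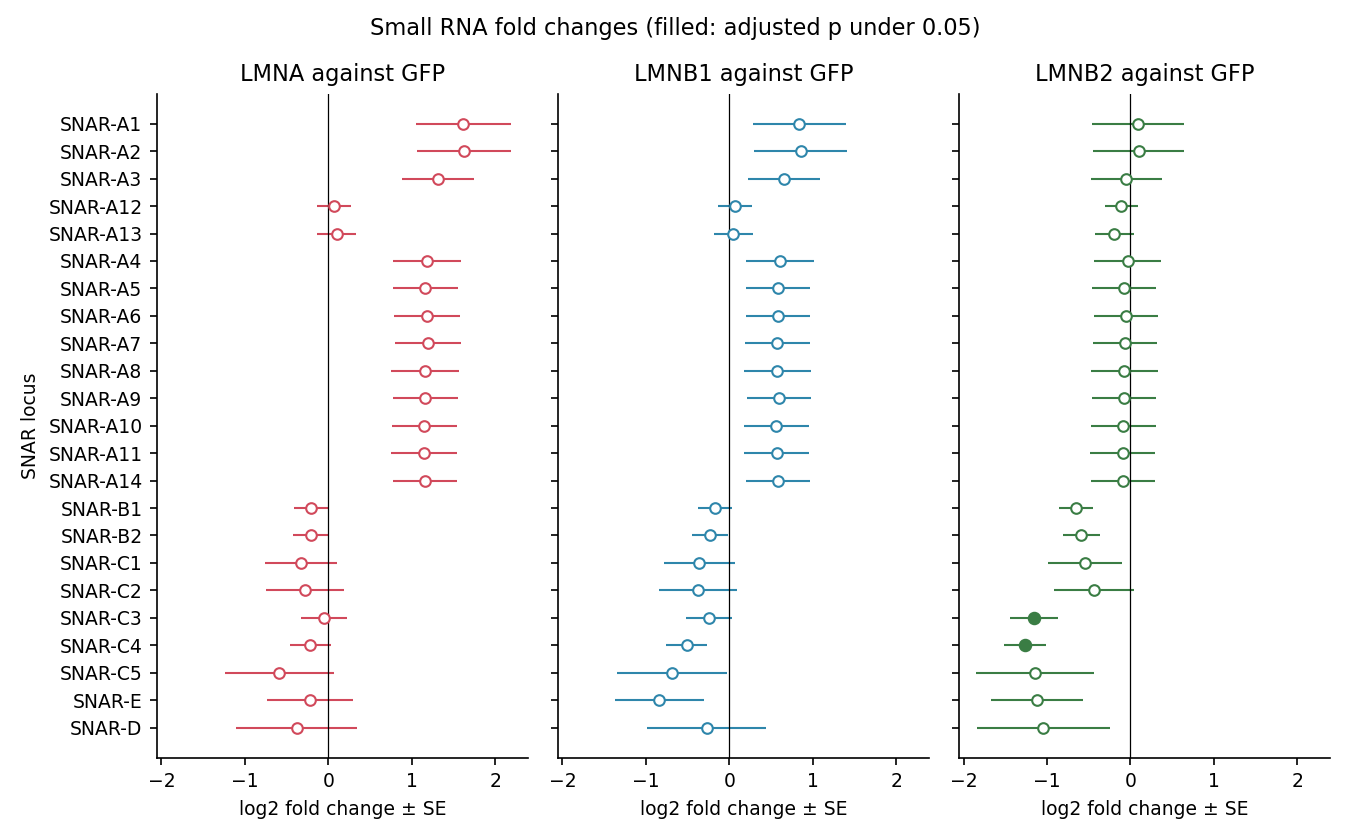
Log2 fold change with SE of each of the 23 tested SNAR loci in small RNA for LMNA, LMNB1 and LMNB2 against the shared GFP libraries; filled points have an adjusted p under 0.05. The abundant A loci sit at 1.15 to 1.62 with LMNA without passing, and C3 and C4 with LMNB2 are the only filled points.

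A ratio between loci of a single library does not depend on how libraries are scaled. The mean count of A1 and A2 divided by that of A12 and A13, all 4 in the proximal cluster, was 20.8, 13.5 and 9.73 in GFP and 48.4, 62.6 and 26.7 with LMNA. It was 17.0, 46.3 and 16.8 with LMNB1 and 18.2, 18.2 and 19.5 with LMNB2. All LMNA libraries lay above all GFP libraries, and LMNB1 replicate 2 lay among the LMNA values while the other LMNB1 libraries lay in the GFP range. A1 and A2 are the loci that separated LMNA from GFP by TMM scaling in these same libraries. A1, A2 and A12 were also chosen after their values were seen. The lack of overlap follows in part from that choice and is not separate support. For 3 against 3 libraries the smallest exact permutation p is 0.1, so none is given as a call.

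The distal A loci behaved likewise against A12 and A13, with ratios of 13.5, 10.2 and 8.88 in GFP and 25.3, 30.9 and 16.1 with LMNA. The A1 and A2 mean divided by the distal A mean was 1.54, 1.32 and 1.10 in GFP and 1.91, 2.02 and 1.65 with LMNA, again without overlap. LMNB1 replicate 2 stood at 1.92, so the 3 libraries with the highest summed family level also had the highest ratios. A1 and A2 thus did not keep a fixed proportion to the distal copies. For A3 the ratio to distal A varied less, from 1.75 to 2.15 over the 12 libraries, against 1.10 to 2.02 for A1 and A2. It was 1.95, 1.94 and 1.75 in GFP and 2.11, 2.15 and 2.02 with LMNA. Reads shared between A1, A2, A3 and the distal copies limit what these ratios can separate. The abundant A set was chosen after its values were seen, so these ratios are not separate support either.

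**Figure D3:**
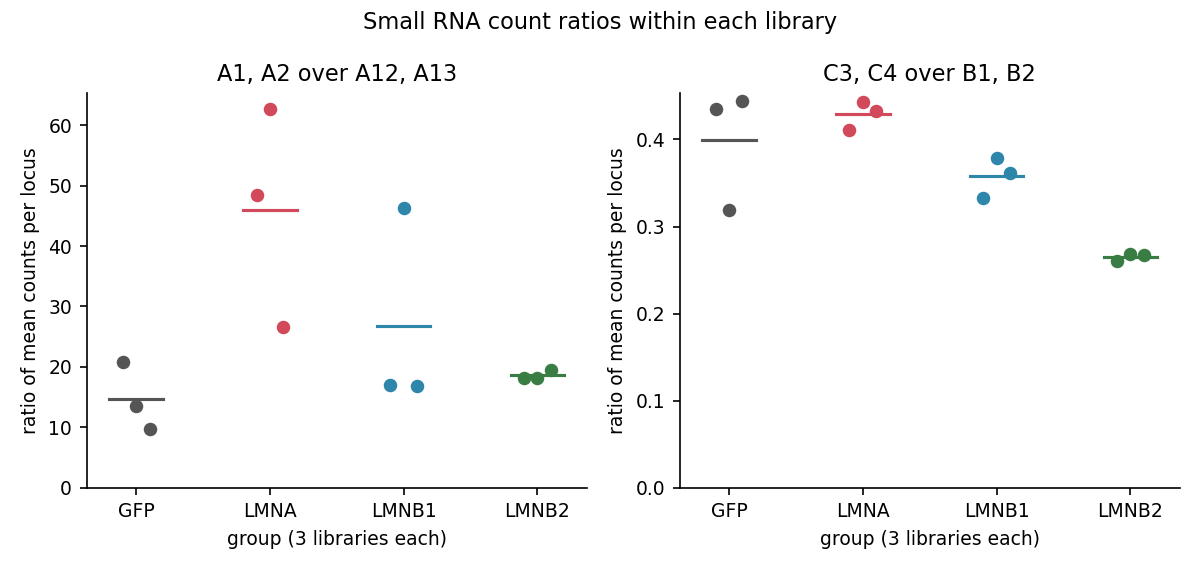
Ratio of mean counts per locus within each library, for A1 and A2 over A12 and A13 (proximal cluster) and for C3 and C4 over B1 and B2; points are the 3 libraries of each group. LMNA libraries are highest in the first ratio, with LMNB1 replicate 2 among them, and LMNB2 libraries are lowest in the second, at 0.260 to 0.269. A1 and A2 are the loci that separated LMNA from GFP by TMM scaling in these same libraries. C3 and C4 are the loci called lower with LMNB2 in these same libraries.

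With lamin B1 the abundant A loci varied widely between replicates. SNAR-A1 was at 35.2, 109 and 38.3 CPM in LMNB1 replicates 1, 2 and 3, so replicate 2 was as high as the LMNA libraries and the other libraries lay inside the GFP range. The summed family level was likewise 347, 852 and 392 CPM. Log2 fold changes against the same GFP libraries were 0.56 to 0.85 for the abundant loci, and did not pass (adjusted p between 0.861 and 0.865, edgeR). Without LMNB1 replicate 2 their median was 0.12, and without GFP replicate 1 it was 1.16.

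No SNAR locus was called in LMNB1 against GFP, where 0.0384% of features were, and DESeq2 called 0 as well, where 0.0621% were. At an unadjusted p under 0.05, edgeR gave 1 locus, C4, at -0.51, where 3.28% of features were lower. No locus separated the groups by TMM scaling, where 4.76% of features did on the higher and 5.29% on the lower side. By total counts 8 distal A loci lay higher in every LMNB1 library, where 6.1% of features did. The family median was 0.56, against -0.05 for all features. It was 0.58 over the 12 abundant A loci and -0.27 over the 11 other tested loci.

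With lamin B2 the abundant A loci were close to the GFP mean and similar between replicates, and the called changes were in C. SNAR-A1 was at 34.5, 35.5 and 38.4 CPM, inside the GFP range of 18.99 to 62.7. The abundant loci had log2 fold changes of -0.09 to 0.10 under TMM scaling and 0.28 to 0.54 by total counts, so their sign depends on the scaling. Total-count scaling moved the median of all tested features in this comparison to 0.19 from -0.04. The spread of A1 between replicates was 2.04 CPM (SD) with LMNB2 and 24.9 CPM with GFP.

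SNAR-C4 fell with LMNB2. It was at 0.962, 0.507 and 0.907 CPM in GFP and at 0.326, 0.281 and 0.362 CPM with LMNB2, from 69 to 161 counts per GFP library and 44 to 54 per LMNB2 library. All LMNB2 libraries lay below all GFP libraries. On the log2 scale the change was -1.26 ± 0.26 (adjusted p = 0.0217, edgeR). The call was lost when scaled by total counts (-1.04, adjusted p = 0.109), with the 6 compared libraries fitted alone (0.0802), and without LMNB2 replicate 1, 2 or 3 (0.0855, 0.119 and 0.085).

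SNAR-C3, whose reads C4 may share, was at 1.03, 0.419 and 0.732 CPM in GFP and at 0.253, 0.320 and 0.384 CPM with LMNB2. Again every LMNB2 library was lower than every GFP library, by a small margin at 0.384 against 0.419 CPM. The log2 fold change was -1.16 ± 0.29 (adjusted p = 0.0483, edgeR). This call was lost in 4 of 8 other settings and in 10 of 12 fits that left out a library, holding only without GFP replicate 2 and without LMNA replicate 3, over an adjusted p range of 0.0107 to 0.187. These 2 of 23 loci were called lower where 0.752% of all features were, and 2.66% in either direction. DESeq2 called 2 loci as well, where 2.82% of features were called in either direction. At an unadjusted p under 0.05 there were 4 loci, where 10.4% of features were lower.

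The B loci had smaller values of the same sign. SNAR-B1 was at 0.995, 1.15 and 1.33 CPM with LMNB2, below the 1.43 to 2.12 CPM of GFP, and B2 was at 1.23, 1.09 and 1.46 against 1.48 to 2.46. Neither group pair overlapped, but neither locus passed: B1 had -0.65 ± 0.21 (adjusted p = 0.0941) and B2 -0.59 ± 0.22 (adjusted p = 0.148) by edgeR. B1, B2, C3 and C4 were the 4 loci that lay lower in every LMNB2 library, where 10.2% of all features did. By total counts only C4 did so, where 1.25% of features did.

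A12 and A13 had log2 fold changes of -0.19 to -0.11, nearer to 0 than those of B and C, and did not pass (adjusted p between 0.686 and 0.803, edgeR). The remaining low loci were too scarce for a firm value. C5 had -1.14 ± 0.71, C1 -0.54 and C2 -0.44. E, a single locus, was at 0.447, 0.206 and 0.777 CPM in GFP and 0.241, 0.186 and 0.220 CPM with LMNB2, with overlap at the lowest GFP library (-1.12 ± 0.55, adjusted p = 0.276, edgeR). D had 9, 2 and 63 counts in the GFP libraries, which alone spans more than the difference to the 8, 11 and 14 counts with LMNB2. The median over all 23 loci was -0.09, against -0.04 for all features. This median hides a difference: it was -0.07 over the 12 abundant A loci and -0.65 over the 11 other tested loci, all 11 negative.

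Within libraries, the mean count of C3 and C4 divided by that of B1 and B2 was 0.435, 0.319 and 0.444 in GFP, 0.411, 0.443 and 0.433 with LMNA, 0.333, 0.379 and 0.361 with LMNB1 and 0.260, 0.269 and 0.267 with LMNB2. The LMNB2 libraries were lowest and lay below all 9 others. C3 and C4 are the loci called lower with LMNB2 in these same libraries. A low ratio there follows in part from that choice and is not separate support for the calls. The rRNA share was also highest with LMNB2, as given above, and its part in these values was not tested.

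The lamins were also compared with each other. These comparisons reuse the libraries of those above and are not independent of them. In LMNB2 against LMNA, C4 was called lower (-1.05 ± 0.26, adjusted p = 0.0416, edgeR), 1 of 23 loci where 0.268% of features were lower. The LMNA libraries had 0.660, 0.649 and 0.731 CPM of C4, all above the 0.281 to 0.362 CPM of LMNB2. The call was lost by total counts (adjusted p = 0.227, edgeR) and with all lncRNA features left out (0.0793). It was also lost in 7 of 12 fits that left out a library (0.0695 to 0.192). C3 had -1.11 ± 0.29 (adjusted p = 0.0632). DESeq2 called 1 locus, where 1.63% of features were called in either direction.

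The abundant A loci had log2 fold changes of -1.53 to -1.22 in LMNB2 against LMNA, with adjusted p of 0.124 to 0.212. With the 6 compared libraries fitted alone, 14 loci were called, where 10.5% of 28716 features were. At an unadjusted p under 0.05 there were 15 loci, where 6.65% of features were lower. In all, 19 of 23 loci lay lower in every LMNB2 than every LMNA library, where 13.5% of features did, and 14 by total counts, where 4.69% did.

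In LMNB2 against LMNB1, 0 loci were called by edgeR, where 0.366% of features were lower, or by DESeq2, where 1.92% were called in either direction. At an unadjusted p under 0.05 in edgeR there were 3 (B1, C3 and C4), where 6.23% of features were lower. C3 and C4 had -0.91 and -0.75 (adjusted p = 0.128 and 0.142). In this comparison 15 loci lay lower in every LMNB2 library, where 14.1% of features did, and 4 by total counts, where 10.7% did. In LMNB1 against LMNA 0 loci were called by either tool, where 0.0118% of features were by edgeR and 0.0296% by DESeq2. In edgeR 0 loci had an unadjusted p under 0.05, where 5.74% of features did. No locus separated the groups, where 6.07% of features did on the higher and 7.51% on the lower side. The family median there was -0.58, with -0.59 over the 12 abundant A loci and -0.05 over the 11 other tested loci.

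Chromatin at the loci was measured on a window that extends each interval by 125 bp on either side. The abundant A windows held 18.2 to 23.3 CPM per kb, at percentile 99.9 of all windows. B1 lay in that range at 18.6 CPM per kb, B2 at 11.9, A12 at 11.1 and A13 at 11.6. A12 and A13 were thus nearer to A1 and A2 in ATAC than in small RNA. The ATAC ratio of A1 and A2 to A12 and A13 was 1.55 to 2.00 over the 12 libraries.

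Among C loci the order of the assays differed. C3 held 7.88 CPM per kb in ATAC and C4 1.78, although both had nearly the same small RNA level. Small RNA reads may be shared between C3 and C4, so that level may not be a separate value for each. C1, C5 and C2 held 5.94, 5.39 and 4.07, all above C4, with less small RNA. G1 and G2 held 2.16 and 1.80 CPM per kb while their small RNA was at or near the limit of detection. H held 0.457, I 0.251, F 0.237, D 0.166 and E 0.0644 CPM per kb, so E was the least open locus while its small RNA level exceeded that of C1, C2 and C5.

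The flanks of 500 bp that start 350 bp outside each window show how local this signal was. A3 held 33.9 times the signal per kb of its near flanks, A1 29.5 and A2 29.4, and the distal A loci 11.2 to 23.1 times. A12 and A13 stood at 21.2 and 23.3, B1 at 14.6 and B2 at 20.9. C loci ranged from 4.52 at C4 to 16.6 at C3, and G1 and G2 stood at 6.80 and 6.78. H and I stood at 7.53 and 4.43. Only F (0.700), E (0.140) and D (0.0288) lay below their flanks, and the near flank of D overlaps the window of B2.

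**Figure D4:**
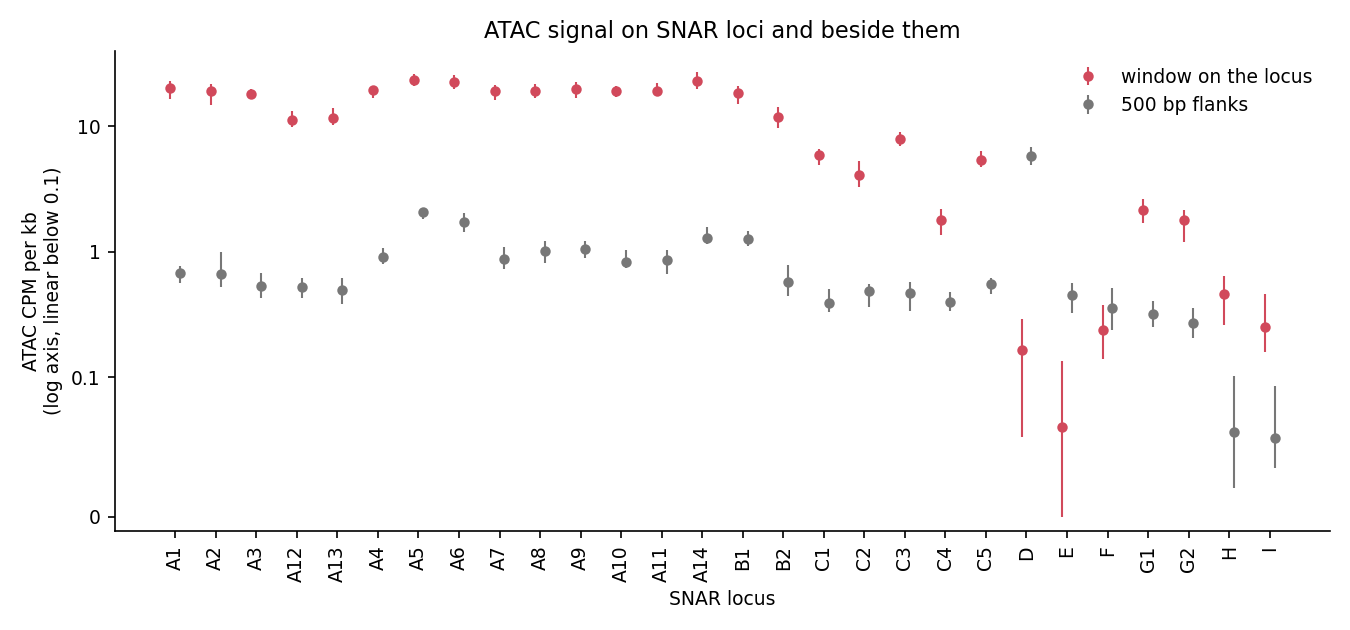
ATAC signal (CPM per kb, log axis, linear below 0.1) in the window on each SNAR locus and in its 500 bp flanks; bars span the lowest to highest of 12 libraries. All loci but D, E and F lie above their flanks, those of the A and B sets by at least 11.2-fold.

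Across the 28 loci, small RNA and ATAC levels per kb had a Spearman rho of 0.836, and across the 23 tested loci 0.780. This is a description over loci that share reads and libraries, and carries no p. E stood apart from the trend, with small RNA and the lowest ATAC level.

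**Figure D5:**
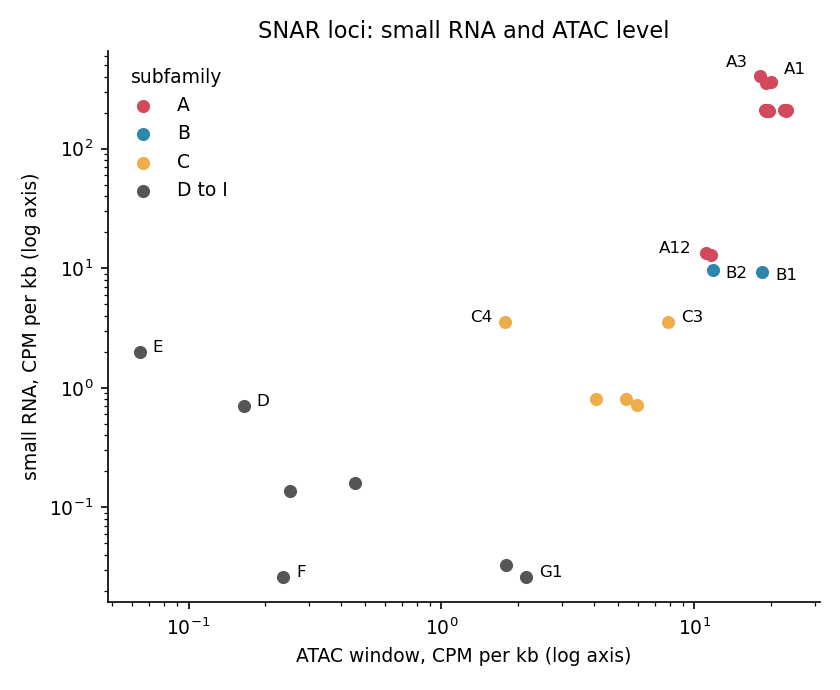
Small RNA level against ATAC level of each SNAR locus (both CPM per kb, log axes, means of 12 libraries), by subfamily. The abundant A loci lie at the top right, A12 and A13 lie well below them and only slightly to their left, and E lies far to the left of loci with like small RNA.

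No SNAR window was called in ATAC in any of the 6 comparisons by edgeR or DESeq2, and all 28 were tested. Calls were also rare over all 163786 windows: 0.000611% in LMNA, 0.00305% in LMNB1 and 0.00244% in LMNB2 against GFP. Of 28 windows, 0, 4 and 0 had an unadjusted p under 0.05 in these comparisons by edgeR, where 5.19%, 4.78% and 5.72% of all windows did. Between lamins, 0.223% of windows were called in LMNB1 against LMNA, 0.00305% in LMNB2 against LMNA and 0.00305% in LMNB2 against LMNB1, and 0, 5 and 7 SNAR windows had an unadjusted p under 0.05, where 5.37%, 7.17% and 4.98% of all windows did. The 5 and 7 windows were lower with LMNB2, by values of -0.26 to -0.15, and B2 was among both.

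The A1 window was at 8.86, 8.44 and 6.78 CPM in GFP and 8.89, 9.18 and 7.99 CPM with LMNA, overlapping. It was at 9.45, 9.04 and 7.80 CPM with LMNB1 and 7.71, 7.96 and 7.69 with LMNB2, within or near the GFP range. The C4 window was at 0.720, 0.698 and 0.630 CPM in GFP and 0.806, 0.566 and 0.764 CPM with LMNB2, overlapping on both sides (log2 fold change 0.06, adjusted p = 0.981, edgeR). The C3 window was at 3.42, 3.39 and 2.89 CPM in GFP and 3.04, 3.51 and 2.91 with LMNB2 (-0.03), so neither window of the loci called in small RNA separated the groups.

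Leaving out D, E, F, H and I, whose windows held few counts, the log2 fold changes of 23 windows lay between -0.03 and 0.19 with LMNA, -0.05 and 0.28 with LMNB1 and -0.20 and 0.06 with LMNB2. Medians over all 28 were 0.10, 0.08 and -0.04. Windows that separated the groups were C5 and G1, higher with LMNA, where 4.81% of windows did so. C5 was higher with LMNB1, where 4.62% did, F higher with LMNB2 (5.59%) and D lower with LMNB2 (4.72%). Between lamins, 5 windows lay lower in every LMNB2 than every LMNA library, where 8.49% of windows did, and 5 lower than every LMNB1 library, where 5.24% did. The window of I, which holds few counts, lay lower in every LMNB1 than every LMNA library (5.46% of windows) and higher in every LMNB2 than every LMNB1 library (6.17%). The mitochondrial share of ATAC counts was 39.9% to 47.5% in GFP and 24.5% to 30.7% with LMNB2, and its part in these values was not tested.

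Other RNA polymerase III genes with a promoter inside the gene served as a comparison. They were BCYRN1, a neuronal Alu-derived RNA, and RN7SL1, RN7SL2 and RN7SL3, the RNA of the signal recognition particle and its copies. The rest were the vault RNAs VTRNA1-1, VTRNA1-2 and VTRNA1-3, and VTRNA2-1, which is named after them. All 8 were tested and 0 were called in either assay. Their median small RNA log2 fold changes were 0.04 with LMNA, 0.14 with LMNB1 and -0.11 with LMNB2. With LMNA they ranged from -0.39 to 0.48, below every abundant A locus. The lowest adjusted p was 0.0745, for VTRNA2-1 with LMNB2 (-0.95 ± 0.28, edgeR). RN7SL3 had 0.62 ± 0.19 in that comparison (adjusted p = 0.0882).

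The 5 features whose log2 CPM followed that of the abundant A loci most closely over the 12 small RNA libraries were all tRNA genes, out of 2663 compared. Only non-lncRNA features outside the family that overlapped no member were compared. Features with a mean log2 CPM under the median of tested features were also left out. How many of the 2663 are tRNA genes is not given here, so their share among the 5 cannot be set against it. Pearson's r was 0.950 for the tRNA gene listed as URS00006366D8, 0.912 for tRNA-Asn-GTT-1-6, 0.902 for tRNA-Asn-GTT-4-1, 0.888 for tRNA-Gly-CCC-5-1 and 0.887 for tRNA-Lys-TTT-7-1. Their log2 fold changes with LMNA were 0.47 to 0.60, smaller than those of the abundant A loci, and did not pass (adjusted p = 0.895, edgeR). The points share library, depth and scaling, so these values are descriptions.

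Long non-coding annotations overlap the family: 8 lncRNA features of the table cover 12 of the loci. The one that covers most, lnc-IZUMO2-2 (chromosome 19, 50093401 to 50148251, minus strand), spans 11 distal loci, and the SNAR intervals inside it add up to 97.4% of its mean count of 44475. Its value with LMNA was 1.14 ± 0.38 on the log2 scale (adjusted p = 0.882, edgeR), close to that of the distal A loci inside it. Overlapping features share reads, so it is not a separate measurement.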

How the data were processed

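The authors deposited raw counts, 1 table per assay, as whole numbers for 12 libraries each. The build was GRCh38, per the submitters' processing notes. Coordinates come from the deposited intervals, converted to start at 1, and RefSeq (GRCh38.p14) gave symbols and neighbours only. The aligner, counter, strand use, treatment of reads with several matches or of duplicates, and any ATAC shift are not given in the sources used here, and each affects values at near-identical copies.

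Groups came from the sample titles. In each assay all 12 libraries were fitted by group means in edgeR 4.0.16 under R 4.3.3, using filterByExpr, TMM and robust quasi-likelihood dispersions. The Benjamini-Hochberg adjustment ran over all 33893 small RNA features or 163786 ATAC windows, with calls under 0.05. The biological coefficient of variation was 0.227 and 0.085. Log2 fold changes used a prior count of 2. The fits were tested on simulated counts, drawn independently for each feature with the same dispersion throughout an assay. That setting does not cover copies that share reads, and its outcome is not given here.

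The members and lists were chosen with earlier results of these data known. Loci named with values were the highest and lowest of each subfamily, those called and those of subfamilies with under 4 copies, plus the named comparison genes, the 5 most alike features, and loci chosen after their values were seen (A1, A2, A12, D, E and the abundant A set). Alternatives were DESeq2 (1.42.0) size factors and its test, total-count scaling, no filter, the 6 compared libraries alone, a replicate block, removal of lncRNA features, 1 interval per locus, flank ratios and leaving out each library. The ratio to 500 bp flanks was chosen after seeing the data.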

Additional observations from a re-analysis of the deposited data

How the results depend on the processing

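No called SNAR locus changed sign. The LMNB2 against GFP medians, which lie near 0, did: in small RNA from -0.09 to 0.28 by total counts and to 0.44 without GFP replicate 1, and in ATAC from -0.04 to 0.065 by total counts and to 0.018 without GFP replicate 1. Leaving out a library also changed the sign of 2 other ATAC medians near 0. They ranged from -0.00267 to 0.148 in LMNB1 against GFP and from -0.0603 to 0.0875 in LMNB1 against LMNA. The replicate block made 2 SNAR loci called in LMNB2 against LMNA small RNA (C3 and C4, adjusted p = 0.0446 and 0.0291, edgeR), against 1. The share of all features called in that fit is not given, so the count cannot be set against it. Same-numbered libraries of different groups correlated over 0.1 in 2 of 18 pairs in each assay, at up to 0.234 in small RNA and 0.195 in ATAC. Pairs with different numbers reached 0.0708 and 0.0895. In small RNA the 2 pairs were GFP with LMNA, replicates 2 and 3. These values do not settle whether the numbers pair libraries. With the replicate block the abundant A median in LMNA against GFP was 1.16, against 1.17.

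SNAR loci called in small RNA. LMNA against GFP, 0 called: no filter gave 10 (0.0737% of features called). LMNB2 against GFP, 2 called: DESeq2 size factors gave 1 (2.7% of features called), total counts 0 (0.832%), the 6 libraries alone 0 (0.0742%), and no lncRNA features 1. Leaving out a library gave 0 to 2. The share over all features is not given for fits with no lncRNA features, with a replicate block or with a library left out. LMNB2 against LMNA, 1 called: total counts gave 0 (0.926% of features called), no filter 12 (0.818%), the 6 libraries alone 14 (10.5%), and no lncRNA features 0. Leaving out a library gave 0 to 3. LMNB2 against LMNB1, 0 called: no filter gave 2 (0.595% of features called) and the 6 libraries alone 3, where 15.5% of features were called, with 0 to 1 on leaving out a library.

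Median log2 fold changes. In small RNA, no filter gave 0.32 in LMNA against GFP and 0.06 in LMNB1 against GFP over 28 loci, in place of 1.15 and 0.56, while the median of the 12 abundant A loci was 1.24 and 0.64. Total counts gave 0.86 in LMNB1 against GFP. Leaving out a library gave 0.89 to 1.69 in LMNA, 0.08 to 1.11 in LMNB1 and -0.35 to 0.44 in LMNB2 against GFP. It gave -1.03 to -0.36 in LMNB1 against LMNA, -1.44 to -1.05 in LMNB2 against LMNA and -0.86 to -0.20 in LMNB2 against LMNB1. In ATAC, total counts gave 0.27 (LMNB1 against GFP), 0.11 (LMNB1 against LMNA) and -0.23 (LMNB2 against LMNB1), and 5000 bp flanks gave -0.036 (LMNB2 against LMNA) and -0.062 (LMNB2 against LMNB1). The cause was not tested.

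Of 1974 settings of single named loci, 93 had the other sign, all where the reported value was at most 0.54 in size.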
